A study of Homo sapiens with 6 samples.

Results

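The genes described here are the 5 subunits of the transcription factor NF-kappaB (NFKB1, NFKB2, REL, RELA and RELB), 3 genes of the IkappaB family (NFKBIA, NFKBIE and NFKBIZ) and the feedback genes TNFAIP3 and BIRC3. They were chosen by gene name, with earlier results of these data known, and all 10 were found among the 60671 genes of the expression table. The cells were U87, an established human glioblastoma line, and the question was how the transcriptome differs after exposure to rutaecarpine, an alkaloid of the fruit Evodia rutaecarpa. In 3 libraries the cells had received 100 µM rutaecarpine for 48 h, and in 3 control libraries they had received 0.1% DMSO, the solvent, for 48 h. Rutaecarpine was diluted from a DMSO stock into serum-free medium, so the solvent was common to both groups. All libraries came from this 1 line, and the sample labels do not say whether the replicates were separate cultures, so the p values measure only the spread between these libraries.

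NF-kappaB proteins bind DNA as dimers. In resting cells IkappaB proteins, such as the product of NFKBIA, hold the dimers in the cytoplasm. Signals from cytokine and Toll-like receptors pass through adaptors, ubiquitin ligases and the IKK kinases, the IkappaB proteins are degraded and the dimers enter the nucleus. A slower branch processes the NFKB2 precursor and releases dimers with RELB. Many genes of the pathway are themselves NF-kappaB targets, among them NFKBIA, TNFAIP3, NFKB2 and RELB, which makes feedback loops. NFKBIZ encodes IkappaB-zeta, an atypical nuclear member of the IkappaB family that binds NF-kappaB on chromatin and takes part in the transcription of a subset of inflammatory genes.

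NF-kappaB binds short motifs called kappaB sites. To show the sites that lie near the starts of these genes, the RefSeq windows from 250 bases before to 50 bases after each annotated start (build GRCh38.p14) were searched on both strands for the kappaB consensus and for a related form, GGGA and TTCC separated by any 2 bases. In the windows of these genes, every match of the related form also matched the consensus. Windows were given for NFKB1, NFKB2, REL, RELA, NFKBIA, NFKBIZ, TNFAIP3 and BIRC3, which have 13 windows between these 8 genes; RELB and NFKBIE were not searched. The matches below, 1 for each gene with a match, are written along the strand of the gene. Capitals mark the 10 bases of the match, with 10 bases on either side. Positions count from the RefSeq start.

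NFKB1, positions -49 to -40, chr4:102501300-102501329, plus strand: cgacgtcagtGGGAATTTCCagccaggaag
NFKB2, positions -21 to -12 of the third start, chr10:102395674-102395703, plus strand: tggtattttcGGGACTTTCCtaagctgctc
REL, positions -47 to -38, chr2:60881517-60881546, plus strand: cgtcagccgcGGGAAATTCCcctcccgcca
NFKBIA, positions -81 to -72, chr14:35404811-35404840, minus strand: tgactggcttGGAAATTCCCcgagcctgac
NFKBIZ, positions -223 to -214 of the first start, chr3:101827757-101827786, plus strand: tttttggtctGGGAATTTCCagtgtgcaga
TNFAIP3, positions -67 to -58, chr6:137867182-137867211, plus strand: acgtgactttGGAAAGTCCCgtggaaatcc
BIRC3, positions -199 to -190, chr11:102317275-102317304, plus strand: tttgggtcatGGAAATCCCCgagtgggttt

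In NFKBIA, TNFAIP3 and BIRC3 the match lies on the opposite strand and is printed here as its reverse complement. Of the 8 genes, 7 held the kappaB consensus, compared with 7.09% of the 27305 genes in the RefSeq table, and 6 held the related form, compared with 1.97% of genes. Counted by window, 9 of 13 held the consensus, compared with 5.91% of 35116 windows. NFKB1 and the first start of NFKBIZ hold an identical 10-base match. Both RELA windows lacked the consensus. The core of the dioxin response element, GCGTG, to which the aryl hydrocarbon receptor (AhR) binds, was in 7 of the 13 windows, compared with 36.5% of all windows. These matches describe the sequence, and binding was not measured. As the values below show, kappaB matches stood both at genes that rose and at genes that did not pass the test.

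**Figure D1:**
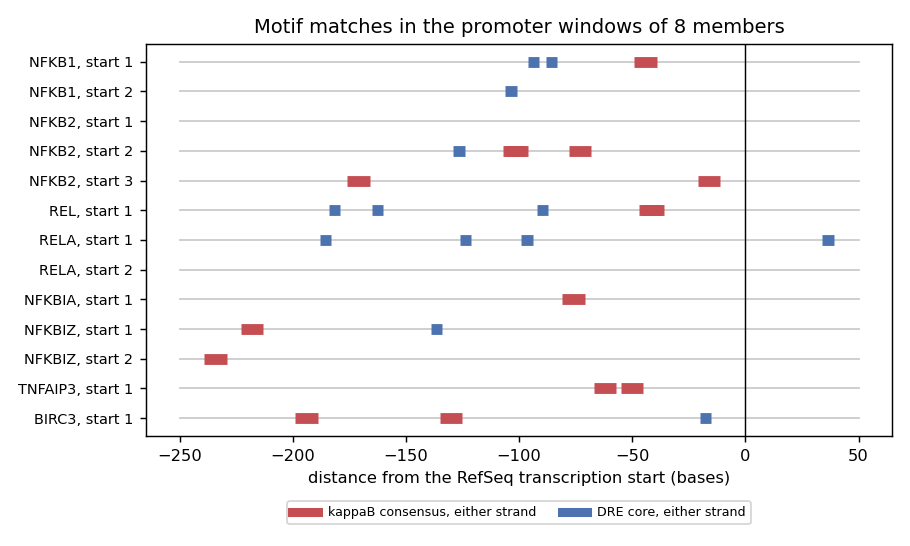
Position of kappaB consensus matches (red) and GCGTG matches (blue) in the 13 RefSeq windows of 8 genes, with the distance from the annotated start in bases on the x axis and 1 line for each window. The kappaB matches of NFKB1, REL, NFKBIA and TNFAIP3 lie between positions -81 and -37, and those of NFKBIZ begin at positions -223 and -239.

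Expression is given in TPM, a relative transcript abundance that scales each gene by its length, so that levels of different genes in a library can be set beside each other. The libraries summed to between 990889 and 995734 TPM. TPM keeps no read numbers, so the depth is unknown. Each log2 fold change compares log2(TPM + 1), which makes the change of a weakly expressed gene look smaller than it was. A gene is said to have risen or fallen where its adjusted p (limma, Benjamini-Hochberg) was at most 0.05 over the 14377 genes that passed a filter on low values, which asked for 3 or more libraries at 1 TPM or higher. By this rule 4.60% of the tested genes rose and 4.68% fell.

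Control replicate 3 stood apart from the other libraries. Its correlation with the other controls on the log2 scale was 0.965, where that between the other two was 0.986. Relative to the mean of the other controls, its median over all tested genes was 0.816, and the median was 0.594 for the 3567 genes with a GC content under 42.1% and 0.588 for the 3567 genes with the longest transcripts. Results below that rest on it are given with and without it. Of 9 markers of a glioma line, 7 reached 1 TPM in all libraries, led by VIM and FN1, while SOX2 and S100B were at 0.25 TPM or less. GFAP, the defining astrocyte marker, was between 3.48 and 5.41 TPM. The summed level of the 9 markers, most of it VIM and FN1, was 14760 to 17040 TPM in the control and 10730 to 11990 TPM in the rutaecarpine libraries. Of the 7 markers tested, VIM, FN1 and NES fell, OLIG2 rose (log2 fold change 0.83, adjusted p = 0.0262), and CHI3L1, CD44 and GFAP did not pass, with a median of 0.18 over the 7. Of 11 markers of other cell types, CD68, a lysosomal gene, held nearly all of the summed level, which was 453.6 to 511.9 TPM in the control and 320.8 to 359.2 TPM in the rutaecarpine libraries, while the leukocyte gene PTPRC was at 0.03 TPM or less and AIF1 was at 0. The part of these marker changes in the results below was not tested. In such bulk libraries, fewer cells of a type and less RNA per cell cannot be told apart. As a check of the treatment, the AhR targets CYP1B1, TIPARP and CYP1A1 rose (log2 fold change 2.52, 3.11 and 0.99, adjusted p = 0.00191, 0.000529 and 0.0113), while the level of AHR itself was 71.6 ± 36.1 in the control and 72.5 ± 15.4 TPM in the rutaecarpine libraries (SD, n = 3; log2 fold change 0.16, adjusted p = 0.846). AHR was at 30.23 TPM in control replicate 3, and without it the log2 fold change was -0.37 (adjusted p = 0.181). CYP1A1 passed the filter on low values only through the rutaecarpine libraries, at 1.12 to 1.18 TPM.

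NFKBIZ rose the most of the 10 genes, RELB and NFKBIA rose by a smaller factor, and none fell. All 10 passed the filter on low values and were tested. The 3 of 10 that rose stand beside the 4.60% of tested genes that rose. The count of genes that fell was 0 by limma, also at an unadjusted p under 0.05, where 6 were higher. The share of all tested genes at this unadjusted p was not computed, so the 6 cannot be set against it. NFKBIZ alone passed the study's second threshold as well, a log2 fold change of more than 1 in size, which 2.01% of tested genes passed in this direction. In 7 of the 10 genes every rutaecarpine library lay above every control library, a pattern that 19.3% of tested genes had. The median log2 fold change of the 10 genes was 0.34, and that of all tested genes was 0.08. Without control replicate 3, 4 of the 10 genes rose, beside 8.36% of the genes tested, and the median of the 10 genes was 0.28.

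**Figure D2:**
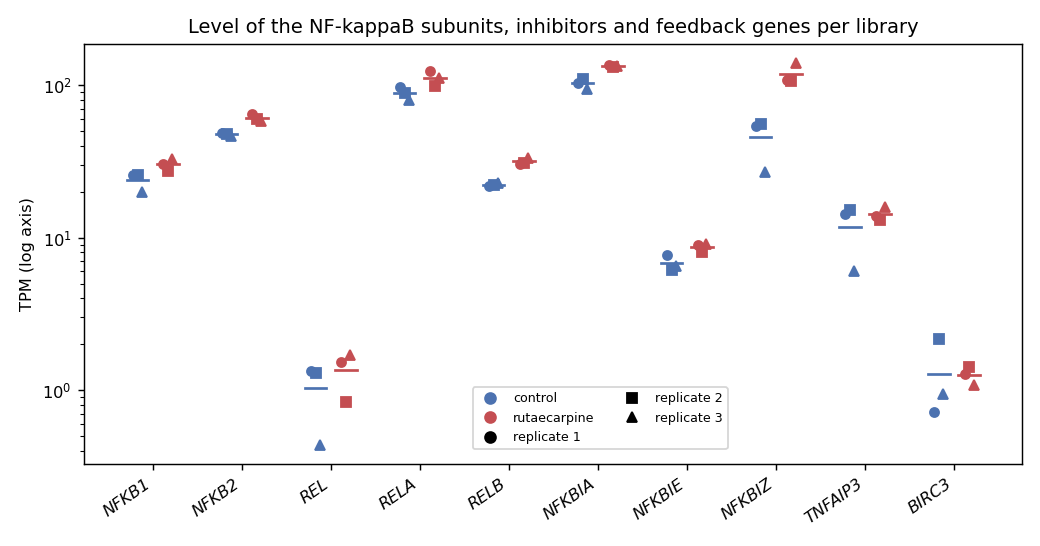
TPM of the 10 genes in each of the 6 libraries on a log axis, with the control in blue, rutaecarpine in red, marker shape for the replicate and a line at the group mean. NFKBIZ shows the widest separation of the groups. Control replicate 3 (blue triangle) is the lowest library for NFKB1, NFKB2, RELA and NFKBIA, and more clearly so for REL, NFKBIZ and TNFAIP3.

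Of the subunits, RELA, which encodes p65, the main transactivating subunit of the canonical pathway, lies on the minus strand at chr11:65653596-65663094 (GRCh38, GENCODE 29). Its level was 96.15, 88.01 and 79.31 TPM in the control libraries 1, 2 and 3 and 123.36, 98.11 and 110.47 TPM in the rutaecarpine libraries. The groups did not overlap, but the lowest rutaecarpine library was close to the highest control. The log2 fold change was 0.33 (SE 0.12), and RELA did not pass the test (adjusted p = 0.141). Without control replicate 3 it was 0.26 (adjusted p = 0.135).

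NFKB1, at chr4:102501329-102617302 on the plus strand, encodes p105, the precursor of p50, the usual partner of p65. It was at 25.69, 25.57 and 19.92 TPM in the control and 30.49, 27.41 and 32.67 TPM in the rutaecarpine libraries. Again the groups did not overlap, with control replicate 3 the lowest of the 6. The log2 fold change of 0.34 (SE 0.14) did not pass the test (adjusted p = 0.192), and without control replicate 3 it was 0.22 (adjusted p = 0.178).

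NFKB2, at chr10:102394110-102402529 on the plus strand, encodes p100, the precursor of p52 and the gene on which the slower branch acts. Its control libraries were close together, at 48.29, 47.77 and 46.00 TPM, and the rutaecarpine libraries were at 64.48, 59.93 and 57.62 TPM. The lowest rutaecarpine library therefore lay well above the highest control. The log2 fold change was 0.35 (SE 0.09), with an adjusted p of 0.0536, just outside the threshold. NFKB2 was inside it without control replicate 3, at a log2 fold change of 0.33 and an adjusted p of 0.0284. When any other single library was left out, NFKB2 did not pass (adjusted p 0.129 to 0.214). Centring each library on its median gave a log2 fold change of 0.26 and an adjusted p of 0.311. Of the 14 alternative fits described below, NFKB2 passed in 3.

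RELB, at chr19:45001430-45038198 on the plus strand, encodes the subunit that pairs with p52 in the slower branch. In the control libraries it was at 21.75, 21.95 and 22.91 TPM, and in the rutaecarpine libraries at 30.28, 30.77 and 33.44 TPM. The groups were well apart relative to their spread, at 22.2 ± 0.62 and 31.5 ± 1.70 TPM (SD, n = 3). RELB rose, with a ratio of the means of 1.42, a log2 fold change of 0.49 (SE 0.10, 95% interval 0.25 to 0.72) and an adjusted p of 0.0281. Control replicate 3 was in range here, at 1.05 times the mean of the other controls, and without it the log2 fold change was 0.51 (adjusted p = 0.00884). With the libraries centred on their medians the call was lost (log2 fold change 0.39, adjusted p = 0.173). It was also lost without control replicate 1 or 2 (adjusted p = 0.1 and 0.0998) and without rutaecarpine replicate 1, 2 or 3 (0.105, 0.0981 and 0.153).

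REL, at chr2:60881521-60931610 on the plus strand, encodes c-Rel, a subunit best known from lymphocytes. It was near the lower limit of the filter, at 1.34, 1.30 and 0.44 TPM in the control and 1.54, 0.84 and 1.70 TPM in the rutaecarpine libraries. The groups overlapped (adjusted p = 0.62). Its log2 fold change of 0.23 was 0.0051 without control replicate 3. The noncoding gene AC010733.2 overlaps the end of REL on the same strand and was listed at 1.00 to 2.31 TPM, so the division of reads between the 2 genes is uncertain.

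Within each library, the share of each subunit in the summed TPM of the 5 subunits differed little between the groups. RELA made up 48.2 ± 1.42% of the sum in the control and 47.1 ± 2.07% in the rutaecarpine libraries (SD, n = 3; two-sided exact permutation p = 0.4). NFKB2 made up 26.1% and 25.9%, NFKB1 12.99% and 12.89%, and REL 0.553% and 0.574%, with exact permutation p of 0.9, 0.9 and 0.8. RELB had the largest shift of the 5, from 12.3 ± 1.21% to 13.5 ± 1.20%, and its groups overlapped (exact permutation p = 0.2). With 3 libraries against 3, this test cannot give a p below 0.1. The sum itself was 193.2, 184.6 and 168.6 TPM in the control and 250.2, 217.1 and 235.9 TPM in the rutaecarpine libraries, without overlap. For RELB the overlap came from control replicate 3: its share was 11.26%, 11.89% and 13.59% in the control and 12.1%, 14.18% and 14.18% in the rutaecarpine libraries, and without control replicate 3 the groups did not overlap and the difference went from 1.24 to 1.91 percentage points.

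Of the 3 genes of the IkappaB family, NFKBIA encodes IkappaB-alpha, the classic cytoplasmic inhibitor, and lies on the minus strand at chr14:35401511-35404749. Its mean level was the highest of the 10 genes in both groups, although in the control it overlapped RELA. The control libraries were at 102.35, 109.66 and 94.47 TPM, and the rutaecarpine libraries were at 134.52, 130.17 and 133.73 TPM. The rutaecarpine libraries were close together and all above the control. NFKBIA rose, from 102.2 ± 7.60 to 132.8 ± 2.32 TPM (SD, n = 3), with a log2 fold change of 0.38 (SE 0.08, 95% interval 0.18 to 0.58) and an adjusted p of 0.0359. Centring the libraries on their medians ended the call (0.28, adjusted p = 0.209), and without control replicate 3 it held (0.32, adjusted p = 0.0146). Without control replicate 1 or 2 the adjusted p was 0.106 or 0.0609, and without rutaecarpine replicate 1, 2 or 3 it was 0.145, 0.11 or 0.154.

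NFKBIE encodes IkappaB-epsilon, another cytoplasmic inhibitor, at chr6:44258166-44265788 on the minus strand. Its level was far below that of NFKBIA, at 7.65, 6.10 and 6.56 TPM in the control and 8.91, 8.01 and 9.02 TPM in the rutaecarpine libraries. The groups did not overlap, but control replicate 1 came close to the lowest rutaecarpine library. Its log2 fold change of 0.32 (SE 0.15) did not pass the test (adjusted p = 0.259).

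NFKBIZ, at chr3:101827991-101861022 on the plus strand, moved furthest. The control libraries were at 53.82, 55.67 and 26.88 TPM, and the rutaecarpine libraries were at 107.67, 105.90 and 138.96 TPM. Every rutaecarpine library was above every control, and control replicate 3 was at 0.491 times the mean of the other controls. NFKBIZ rose from 45.5 ± 16.1 to 117.5 ± 18.6 TPM (SD, n = 3), a ratio of the means of 2.59, with a log2 fold change of 1.41 (SE 0.28, 95% interval 0.75 to 2.07) and an adjusted p of 0.0237. Of all tested genes, 98.9% had a lower log2 fold change. Without control replicate 3 the ratio of the means was 2.15, the log2 fold change 1.08 (95% interval 0.79 to 1.36) and the adjusted p 0.00122. Leaving out rutaecarpine replicate 1, 2 or 3 took the adjusted p to 0.0809, 0.0811 or 0.107, with the direction kept. In the control, NFKBIZ overlapped NFKB2 in level only through control replicate 3. In control replicates 1 and 2 it was above every NFKB2 control value. In the rutaecarpine libraries NFKBIZ also lay above every NFKB2 value, and it overlapped RELA and NFKBIA, the genes with the highest levels.

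**Figure D3:**
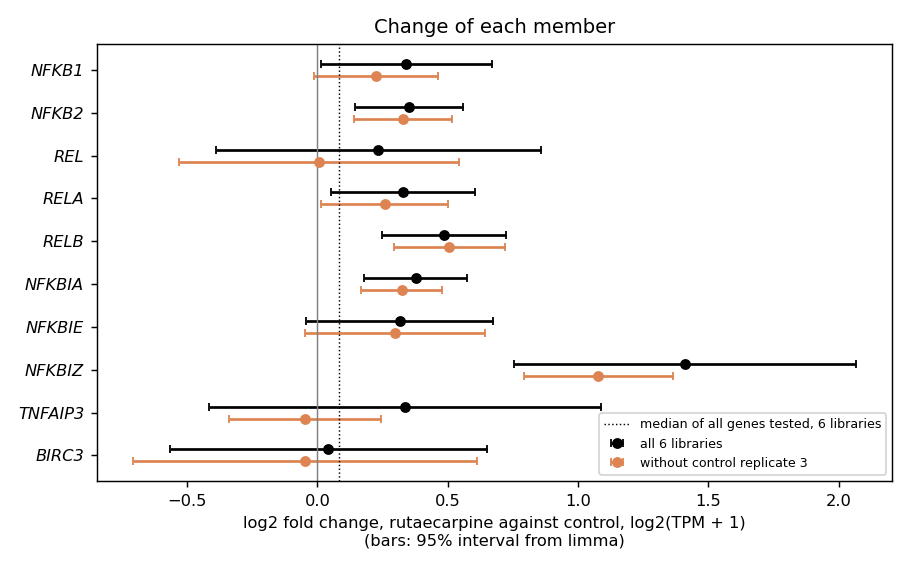
log2 fold change of each gene on the log2(TPM + 1) scale, rutaecarpine against control, with the 95% interval from limma as bars, for all 6 libraries (black) and without control replicate 3 (orange), and the median of all tested genes as a dotted line. NFKBIZ has an interval of 0.75 to 2.07, above those of NFKB2, RELB and NFKBIA, and TNFAIP3 moves from 0.34 to -0.05 without control replicate 3.

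The feedback genes TNFAIP3 and BIRC3 did not separate the groups. TNFAIP3, at chr6:137867188-137883312 on the plus strand, encodes A20, a ubiquitin-editing enzyme that shuts the pathway down and is a classic NF-kappaB target. It was at 14.24, 15.04 and 6.04 TPM in the control and 13.75, 12.95 and 15.84 TPM in the rutaecarpine libraries. The rutaecarpine values straddled control replicates 1 and 2, and control replicate 3 was at 0.413 times their mean. The log2 fold change was 0.34 (95% interval -0.41 to 1.09, adjusted p = 0.556). Without control replicate 3 it was -0.05 (95% interval -0.34 to 0.24, adjusted p = 0.837), so the upper end of that interval lies below the lower end of the interval for NFKBIZ, 0.79. The antisense gene AL357060.1 overlaps the first part of TNFAIP3 and was listed at 0.09 to 1.11 TPM. Whether the counting used strand is not given in the sources used here.

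BIRC3, at chr11:102317450-102339403 on the plus strand, encodes cIAP2, a ubiquitin ligase of the TNF receptor complex. It was close to the lower limit of the filter, at 0.72, 2.17 and 0.94 TPM in the control and 1.28, 1.42 and 1.09 TPM in the rutaecarpine libraries. All rutaecarpine values lay inside the control range. The log2 fold change was 0.04 (95% interval -0.57 to 0.65, adjusted p = 0.935), an interval too wide to exclude a change of the size seen for RELB or NFKBIA.

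Ratios within a library do not depend on how libraries are scaled, and they set the members against each other. The log2 ratio of NFKBIA to the summed subunits was -0.917, -0.751 and -0.836 in the control and -0.895, -0.738 and -0.819 in the rutaecarpine libraries. The groups overlapped over nearly their whole range, with a difference of 0.02 (two-sided exact permutation p = 0.7). For the summed TPM of NFKBIA, NFKBIE and NFKBIZ, the log2 ratio to the subunits was -0.238, -0.107 and -0.398 in the control and 0.0055, 0.169 and 0.256 in the rutaecarpine libraries. The difference was 0.39 (exact permutation p = 0.1, the smallest this design allows), and with NFKBIA and NFKBIE alone it was 0.02, so that NFKBIZ carried it. Without control replicate 3 the difference for the 3 summed IkappaB genes was 0.316.

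A further pair of ratios was chosen after the values were seen. The log2 ratio of NFKBIZ to NFKBIA was -0.927, -0.978 and -1.81 in the control and -0.321, -0.298 and 0.055 in the rutaecarpine libraries, a difference of 1.05. Without control replicate 3 this difference was 0.76. NFKBIZ to TNFAIP3 gave the tighter groups of these ratios, at 1.92, 1.89 and 2.15 in the control and 2.97, 3.03 and 3.13 in the rutaecarpine libraries, a difference of 1.06 (1.14 without control replicate 3). Control replicate 3 was no longer far from the other controls in this ratio, since both genes were low in it. Each had an exact permutation p of 0.1, and over the 9 shares and ratios tested the adjusted p of the 3 ratios with NFKBIZ was 0.3.

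**Figure D4:**
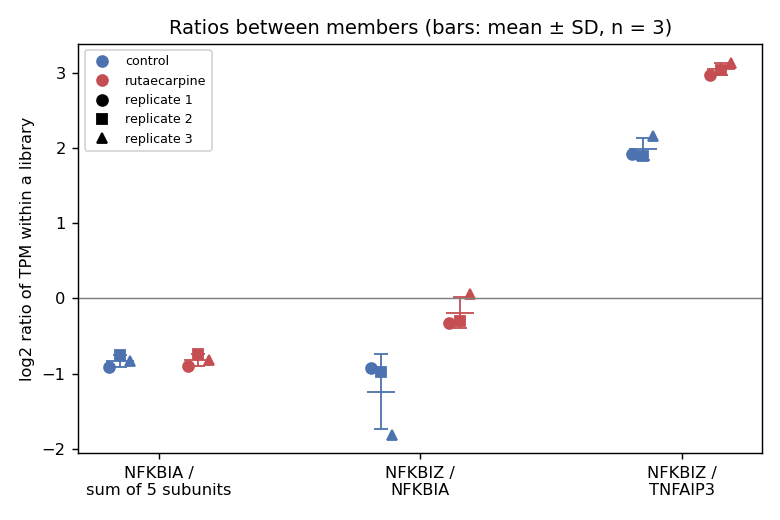
log2 ratio of TPM within each library for NFKBIA to the 5 summed subunits, NFKBIZ to NFKBIA and NFKBIZ to TNFAIP3, with the control in blue, rutaecarpine in red and bars for the mean ± SD (n = 3). The groups overlap in the first ratio (difference 0.02), and the 2 ratios with NFKBIZ differ by 1.05 and 1.06 without overlap. Without control replicate 3 these 2 differences are 0.76 and 1.14.

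The other genes of the pathway were described by role. Their counts stand beside the 4.60% of tested genes that rose and the 4.68% that fell, and without control replicate 3 beside the 8.36% that rose. A count of 1 in a short list is therefore not read as a result about that list. Of 12 receptors 9 were tested, and TNFRSF1B, the TNF receptor TNFR2, rose from 27.7 ± 1.43 to 56.8 ± 2.51 TPM (log2 fold change 1.01, adjusted p = 0.00143). The receptors with the highest levels among the others did not pass: TNFRSF12A was at 257.4 ± 34.6 and 303.8 ± 15.6 TPM, and TNFRSF1A, the receptor TNFR1, at 99.97 ± 1.78 and 88.5 ± 10.9 TPM. None of the 9 fell. Without control replicate 3, TNFRSF12A passed (log2 fold change 0.35, adjusted p = 0.0108) and 3 receptors rose in all. The median log2 fold change of the 9 was 0.12, beside 0.08 for all tested genes.

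Among 23 adaptors and ubiquitin ligases, 4 rose and 0 fell, with a median of 0.27. CARD10, the scaffold that joins receptors to BCL10 and MALT1, rose from 16.9 ± 1.13 to 68.9 ± 4.10 TPM (log2 fold change 1.96, adjusted p = 0.000188). IRAK2, a kinase of the interleukin-1 and Toll-like receptor complex, went from 24.6 ± 2.89 to 50.3 ± 5.25 TPM (1.01, adjusted p = 0.00505). RIPK2, which acts below the NOD receptors, was at 37.1 ± 5.13 and 65.1 ± 2.00 TPM (0.80, adjusted p = 0.00815), and SQSTM1, the autophagy receptor p62, at 780 ± 51.9 and 1114 ± 31.4 TPM (0.52, adjusted p = 0.00786). IRAK1 and TAB2, the genes of this list with the highest levels among those that did not pass, were at 148.7 and 161.5 TPM and at 56.9 and 66.6 TPM. For TAB2 the log2 fold change of 0.26 was 0.02 without control replicate 3.

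Of 8 IKK and upstream kinases, MAP3K8, the kinase TPL2, rose from 5.37 ± 0.65 to 8.84 ± 0.51 TPM (log2 fold change 0.63, adjusted p = 0.048), and 0 fell. The IKK subunits with the highest levels did not pass, with IKBKG at 25.1 and 31.7 TPM and IKBKB at 25.8 and 28.0 TPM. With control replicate 3 left out, IKBKG passed (log2 fold change 0.32, adjusted p = 0.0497) and 2 kinases rose, while IKBKB turned from 0.13 to -0.05. In the 3 remaining IkappaB genes, NFKBIB, which encodes IkappaB-beta, rose from 22.1 ± 0.80 to 35.6 ± 0.77 TPM (0.66, adjusted p = 0.00693). BCL3, an atypical nuclear member like NFKBIZ, was at 54.0 ± 2.31 and 69.5 ± 9.79 TPM (adjusted p = 0.137), and NFKBID at 6.44 ± 2.75 and 6.07 ± 1.05 TPM. NFKBID turned from a log2 fold change of -0.02 to 0.26 without control replicate 3, and neither gene passed.

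Among other negative regulators, 1 of 18 tested genes rose and 1 fell, which became 5 and 2 without control replicate 3 and 9 and 2 with library weights. Of all tested genes, 1186 of 14188 rose and 1466 fell without control replicate 3. With library weights, 1935 of 14377 rose and 2027 fell. ZC3H12A, the ribonuclease Regnase-1 that degrades inflammatory mRNAs, rose from 43.9 ± 2.30 to 58.6 ± 2.88 TPM (log2 fold change 0.41, adjusted p = 0.0363). PDLIM2, a nuclear ubiquitin ligase for p65, fell from 192.8 ± 19.9 to 134 ± 12.6 TPM (-0.52, adjusted p = 0.028). TNIP1, a partner of A20, was at 245 and 271.9 TPM and RNF11 at 73.7 and 85.9 TPM, and neither passed. RNF11 turned from a log2 fold change of 0.32 to -0.09 without control replicate 3, and it did not pass. When the libraries were centred on their medians, SQSTM1, NFKBIB, ZC3H12A and PDLIM2 lost their calls, with adjusted p of 0.231, 0.0711, 0.203 and 0.118. Of the 6 fits that left out a single library, RIPK2, SQSTM1 and NFKBIB passed in 5 and missed narrowly without rutaecarpine replicate 3 (adjusted p = 0.0542, 0.0539 and 0.0541). In the fits without a library other than control replicate 3, MAP3K8 and ZC3H12A did not pass, with adjusted p of up to 0.205 and 0.161, and PDLIM2 passed in 2 of the 6 fits, with adjusted p of 0.0128 to 0.127.

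The textbook NF-kappaB target genes covered a wider range of changes than the 10 members. Of 42 listed, 32 were tested, 13 rose, 3 fell, and the median log2 fold change was 0.44. Of all tested genes, 4.60% rose and 4.68% fell. The list was chosen with earlier results of these data known, so its counts and median are a description only. All 13 that rose had a log2 fold change above 1, and 2.01% of all tested genes passed both thresholds in this direction. Of the 16 that passed in either direction, 13 also passed in each of the 6 fits that left out a single library, and CXCL5, VCAM1 and TNFAIP2 did not. IL1B, which encodes interleukin-1 beta, rose from 196.5 ± 20.8 to 6670 ± 319.5 TPM (log2 fold change 5.08, adjusted p = 2.76e-06). PTGS2, the inducible cyclooxygenase, rose by 3.98, IL1A, for interleukin-1 alpha, rose by 3.09, and the chemokines CXCL2 and CCL20 rose by 3.06 and 2.99 on the same scale. LIF, a cytokine of the interleukin-6 family, rose by 3.02.

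The 3 targets that fell were named after their values were seen. PTX3, a soluble pattern recognition protein, fell from 117.5 ± 3.07 to 64.4 ± 7.02 TPM (log2 fold change -0.86, adjusted p = 0.00325). TNFAIP2 fell from 100.9 ± 18.6 to 61.5 ± 4.70 TPM (-0.69, adjusted p = 0.0332), and of the 6 fits it passed only in that without control replicate 3 (adjusted p 0.000651 to 0.128). VCAM1, an adhesion molecule, fell from 3.33 ± 1.08 to 0.903 ± 0.075 TPM (-1.16, adjusted p = 0.0188), and it passed the filter only through the control libraries. Without a rutaecarpine library its adjusted p was 0.0814 to 0.0838, and without a control library it could not be tested. At the top of the level range, SOD2, the mitochondrial superoxide dismutase, was at 893.4 ± 338.4 and 1366 ± 119.9 TPM (adjusted p = 0.199), but it passed without control replicate 3 at a smaller log2 fold change, 0.33 (adjusted p = 0.0435) against 0.69. The complement gene C3 was at 805.1 ± 48.0 and 724.2 ± 11.9 TPM (adjusted p = 0.262). The targets therefore did not move as a block. Of the members that are targets themselves, NFKBIA and RELB rose, while NFKB2, TNFAIP3 and BIRC3, the last near the lower limit of the filter, did not pass.

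**Figure D5:**
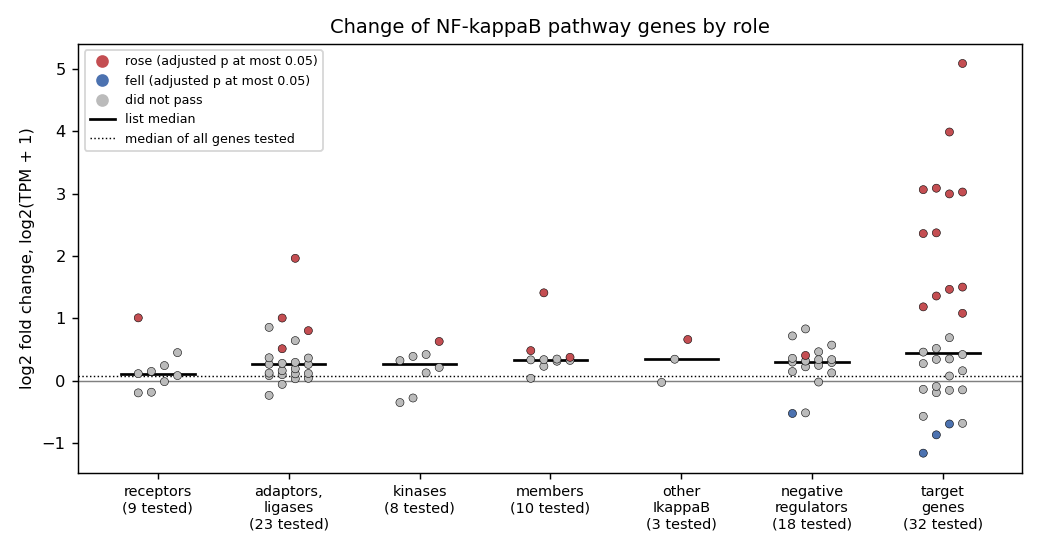
log2 fold change on the log2(TPM + 1) scale, rutaecarpine against control, of each tested gene of the pathway by role, with genes that rose in red, those that fell in blue, the others in grey, and a bar at the median of each list. The list medians lie between 0.12 (receptors) and 0.44 (target genes), and IL1B reaches 5.08.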

How the data were processed

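RNA of U87 cells (3 control and 3 rutaecarpine libraries) was sequenced, and genes were quantified with RSEM. The authors deposited TPM, 1 column per library, and the submitters' processing notes name GRCh38.p13, RSEM, DESeq2 and edgeR. The aligner is not given in the sources used here. All 6 columns were matched by their labels.

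Genes at 1 TPM or higher in 3 or more libraries were kept, and the groups, on the log2(TPM + 1) scale, were compared with limma 3.58.1 in R 4.3.3 (empirical Bayes with a mean-variance trend, two-sided, Benjamini-Hochberg adjustment), without between-library normalization. The test was tried first on simulated normal values, with means and spread taken from the libraries other than control replicate 3. That trial therefore does not cover the deviation of control replicate 3. Positions, lengths and GC content came from GENCODE 29, and promoter windows from RefSeq. Shares and ratios were computed within libraries and tested by exact permutation. Figures were drawn with matplotlib 3.10.9 in Python 3.11.15.

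The members and gene lists were chosen with earlier results of these data known. All members were named. From each pathway list, up to 6 genes that passed, by absolute log2 fold change, and up to 2 genes that did not, by mean TPM, were named, as were AHR, CYP1A1, CYP1B1 and TIPARP. The alternatives were centring, no trend, no filter, 1 TPM or higher in every library, a replicate block, a pseudocount of 0.1, library weights, an adjusted p of at most 0.001, and leaving out each library. Removal of length and GC trends was added once the deviation of control replicate 3 had been seen.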

Additional observations from a re-analysis of the deposited data

How the results depend on the processing

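Of the 10 members, NFKBIZ, RELB, NFKBIA, NFKB1, NFKB2, RELA and NFKBIE were higher under each of the 14 alternative fits, and NFKBIZ passed the test in 9 of them (log2 fold change 1.08 to 1.59, adjusted p 0.000506 to 0.107), RELB in 7 (adjusted p 0.00182 to 0.173) and NFKBIA in 5 (0.00365 to 0.209). The number of members that rose, 3, was 1 with centred libraries, 1 with no filter on low TPM, 6 with library weights, 5 with length and GC trends removed, 0 at an adjusted p of at most 0.001, and 0 to 4 when single libraries were left out. Over all tested genes, 662 of 14377 rose in the main fit, 593 of 14377 with centred libraries and 453 of 29330 with no filter. With library weights 1935 of 14377 rose, and with the trends removed 1301 of 14267. With single libraries left out, 242 to 1186 genes rose. The share at the stricter p is not given here. With no filter, at an adjusted p of at most 0.001, or without a rutaecarpine library (range 0 to 1), 0 members passed the fold threshold too. With limma, 4 to 6 members were higher at an unadjusted p under 0.05 in the fits that called 0. For such unadjusted counts the share of all tested genes was not computed. The number of pathway genes that rose, 21, was 40 with library weights, 33 with length and GC trends removed, 11 at the stricter p and 15 to 31 with single libraries left out. The number that fell, 4, was 1 with no filter, 7 with library weights, 0 at the stricter p and 1 to 4 with single libraries left out. Of all tested genes, 673 fell in the main fit, 439 with no filter and 2027 with library weights. Calls over all genes, 1335, came to 3962 with library weights, 2762 with the trends removed, and 500 without rutaecarpine replicate 3 to 2652 without control replicate 3. In these fits the members' counts moved in the same direction. With centred libraries 1379 genes passed in all, but fewer of them rose than in the main fit, 593 against 662, and 1 member rose.

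The log2 fold change turned negative for REL with the trends removed (-0.0039), for TNFAIP3 with library weights (-0.0053) and without control replicate 3 (-0.0471), and for BIRC3 with centring (-0.0514), library weights (-0.1415), the trends removed (-0.1797), and without control replicate 1 (-0.1344), control replicate 3 (-0.0476) or rutaecarpine replicate 2 (-0.008). With single libraries left out, TNFAIP3 ranged up to 0.5469 and BIRC3 up to 0.3066. The ratio of the summed IkappaB genes to the subunits differed by 0.0153 without NFKBIZ, by construction. The cause of the other changes was not tested. With the replicate number as a block, 0 members rose (5 higher at an unadjusted p under 0.05), 0 passed both thresholds, 1 pathway gene fell and 428 genes passed in all. The deviations of control and rutaecarpine libraries with the same number correlated at 0.1157, -0.2656 and -0.2154, and 0 of 6 libraries correlated best with its own number. With 3 libraries per group and control replicate 3 apart from the others, this check cannot show whether the numbers pair the libraries. Without read counts, the error of REL and BIRC3 near 1 TPM cannot be given.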

Other observations

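TNF, the ligand of TNFRSF1B and a classic NF-kappaB target, was below the filter on low values and was not tested. It was at 0.24, 0.40 and 0.38 TPM in the control and 1.38, 0.66 and 1.05 TPM in the rutaecarpine libraries, so the groups did not overlap at a level where TPM gives no counting error. By contrast, CXCL5, a neutrophil chemokine, passed the filter through the rutaecarpine libraries (2.54 to 3.37 TPM) and control replicate 1, with a log2 fold change of 1.19 (limma, adjusted p = 0.0227) that passed in 2 of the 6 fits without a library (adjusted p 0.0124 to 0.0977).

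In control replicate 3, the members furthest below the mean of the other controls were REL (0.333 times), TNFAIP3 (0.413 times) and NFKBIZ (0.491 times). The GC content of their longest transcripts is 38.7%, 49.5% and 46.2%. BIRC3, at 34.8%, was at 0.651 times this mean, but its 0.94 TPM lay above control replicate 1, at 0.72 TPM. NFKB1, with a GC content of 50.1%, close to that of TNFAIP3, was at 0.777 times. RELB, with the highest GC content of the 10 members at 65.4%, was at 1.05 times. With the trends on length and GC content removed, the log2 fold change was 1.32 for NFKBIZ (limma, adjusted p = 0.00279), 0.50 for RELB (adjusted p = 0.00489) and 0.24 for TNFAIP3, which did not pass.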
